A study of Mus musculus with 6 samples.

Results

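The replication-dependent histone genes encode the H1, H2A, H2B, H3 and H4 proteins that package newly copied DNA. They were taken as every gene of the deposited count table whose symbol starts with Hist1h, Hist2h, Hist3h or Hist4h, which gave 68 of 49315 genes. Of these, 6 belong to the H1 type, 20 to H2A, 17 to H2B, 12 to H3 and 13 to H4. GENCODE M21 calls 65 of them protein coding and 3 pseudogenes.

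The libraries come from CD8+ T cells sorted from the tumor-draining lymph nodes of wild-type female C57Bl6/J mice bearing B16F10 tumors, a transplantable mouse melanoma (the sample labels spell it B26F10). Treatment was given as a single dose when tumors measured 50 to 100 mm3, and cells were taken on day 5. In the monotherapy group (n = 3) mice received HCW9218 under the skin, which by the series title is a complex of TGF-βRII and IL-15. In the combination group (n = 3) they received HCW9218 under the skin and an antibody against PD1 into the peritoneum. Both groups carry the tumor and HCW9218, and untreated mice are not analysed here, so the comparison is between HCW9218 with and without anti-PD1.

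Replication-dependent histone genes lie in clusters, lack introns in their classical form and are transcribed mainly in S phase, when DNA is copied. Their mRNA usually ends not in a poly(A) tail but in a short stem-loop, which the stem-loop binding protein SLBP recognises. The U7 small nuclear ribonucleoprotein directs the cut of the precursor downstream of it, so that the stem-loop stays at the end of the mature mRNA. Some members also make polyadenylated mRNA from a downstream site, above all in cells that have left the cycle. Per the labels' protocols these libraries were made from mRNA enriched on oligo(dT) beads, so the counts come from whatever histone RNA was retained on those beads, and the part without a tail was not measured as such.

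The stem-loop carries that point and is therefore shown as it stands in 7 members. A 16-base stem-loop consensus was found in a GENCODE M21 transcript of 44 of 68 members, and in 43 of them it lies inside the gene model of the deposited files. Sequences are written 5′ to 3′ on the mRNA strand as DNA letters, with 5 bases on either side, the stem-loop in capitals and the GRCm38 position of the 16 capitals given first.
Hist1h1c, chr13:23739512-23739527 (+): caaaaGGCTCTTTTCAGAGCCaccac
Hist3h2a, chr11:58955172-58955187 (+): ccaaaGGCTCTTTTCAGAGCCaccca
Hist2h2ac, chr3:96220418-96220433 (-): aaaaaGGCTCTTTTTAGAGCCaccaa
Hist1h3c, chr13:23745047-23745062 (-): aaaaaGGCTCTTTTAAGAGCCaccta
Hist1h4i, chr13:22040966-22040981 (-): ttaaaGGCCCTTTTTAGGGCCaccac
Hist4h4, chr6:136803998-136804013 (-): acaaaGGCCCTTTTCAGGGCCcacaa
Hist1h4b, chr13:23757366-23757381 (+): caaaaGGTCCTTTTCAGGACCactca

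The stem differed by histone type. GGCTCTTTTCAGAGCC was the form of 24 members, among them 10 H2A, 6 H2B, 5 H3 and 3 H1 genes and 0 H4 genes. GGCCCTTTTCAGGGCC was the form of 7 members, all H4. The other 6 forms were held by 1 to 6 members each. Of the 24 members without a match, 18 have a deposited model under 500 bases, which mostly holds the coding part alone. Hist2h2be, a long H2B gene, has no match to these letters in its transcript, which says nothing of the end of its RNA.

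The gene models differ in what lies after the stem-loop. Of the 43 members with the stem-loop inside the deposited model, 28 end within 60 bases of it, 11 run on for over 300 bases, and 4 lie between. Hist1h1c, a linker histone gene at chr13:23738808-23740367, runs on for 840 bases. Hist3h2a at chr11:58954685-58956830 and the lone chromosome 6 gene Hist4h4 at chr6:136801553-136804415 run on for 1643 and 2445 bases. Hist1h3c at chr13:23745013-23745501 ends 34 bases after it. All members were described as exonic sequence of single-exon genes in the deposited files except Hist1h2bp, Hist1h2bc and Hist1h2be with 2 exons each and Hist1h2bq and Hist1h2br with 3 exons each.

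The members sit on 4 chromosomes, with 54 on chromosome 13, 10 on chromosome 3, 3 on chromosome 11 and Hist4h4 on chromosome 6. Their sequences are close copies of each other. In the median member, 51.4% of the 100-base windows of the gene model occur in no other GENCODE M21 gene, and 35.9% of the 50-base windows. In 17 members fewer than 20% of the 100-base windows are their own, and in 5 members none is. How reads with several matches were counted is not given in the sources used here, so the split of reads between close copies is uncertain. All 20 H2A genes also overlap an annotated gene on the opposite strand. On their own strand 5 members overlap one, among them Hist3h2a, which overlaps Trim17.

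Histone reads were few. Together the 68 genes took between 0.00301% and 0.00433% of the counts of a library, that is 1606, 1555 and 1431 reads in monotherapy replicates 1, 2 and 3 and 1542, 1436 and 1040 reads in combination replicates 1, 2 and 3. Totals ran from 34568074 to 40101346 counts per library. Levels are given as CPM, that is counts divided by the library's total and set to a common depth, scaled between libraries by TMM factors. Reads were found in at least 1 library for 59 members and in every library for 39. Only 12 members reached 100 reads over the 6 libraries, and 5 had a mean of 1 CPM or more.

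The 9 members at 0 in every library were Hist2h2aa1, Hist2h2aa2, Hist2h2bb, Hist2h3b, Hist2h3c1, Hist1h1t, Hist1h2aa, Hist1h2ba and Hist1h2bf. A count of 0 allows up to 3 counts, which is 0.0723 to 0.0911 CPM depending on the library, and covers counting error only. Hist1h1t, Hist1h2aa and Hist1h2ba encode testis forms of their proteins. The 5 Hist2 genes in that group are the 5 members with no 100-base window of their own. Each of these 5 also overlaps another annotated gene, on its own strand in Hist2h2aa1, Hist2h3c1 and Hist2h2bb. The cause of the zeros was not tested.

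**Figure D1:**
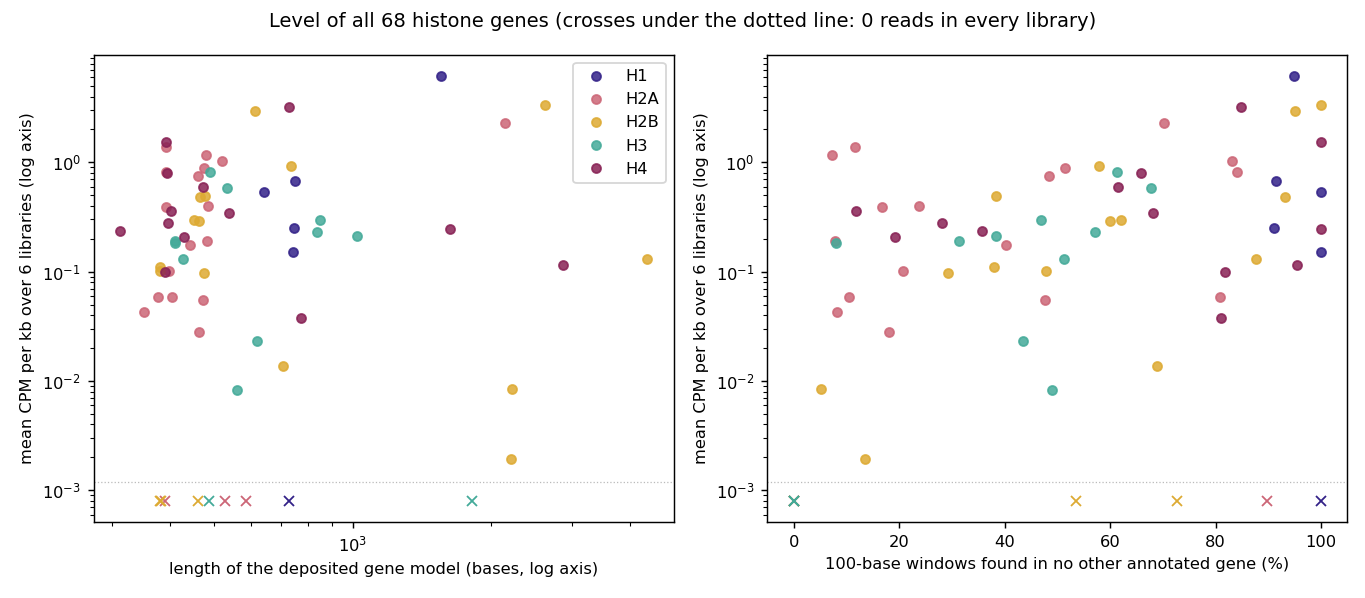
Mean CPM per kb over the 6 libraries (vertical, log axis) of each of the 68 genes against the length of the deposited gene model (left, log axis) and the percent of its 100-base windows found in no other gene (right). Circles are genes coloured by histone type, and crosses under the dotted line are the 9 genes at 0; Hist1h1c stands highest at 6.18 CPM per kb, and genes under 1000 bases with reads run from 0.00828 to 3.20 CPM per kb.

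Per length, Hist1h1c was highest at 6.18 CPM per kb, followed by the H2B gene Hist2h2be at 3.35, the H4 gene Hist1h4i at 3.20, the H2B gene Hist3h2ba at 2.94 and the H2A gene Hist3h2a at 2.31. The next were Hist1h4d at 1.52, Hist1h2ai at 1.38, Hist1h2ao at 1.17 and Hist2h2ac at 1.02 CPM per kb. Neighbours in this order rest on few reads, and their order was not tested. Of the 11 members that run on for over 300 bases after the stem-loop, 3 had a mean of 1 CPM or more, and of the 28 that end within 60 bases, 0 did. Per length their medians were 0.23 and 0.293 CPM per kb.

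The replacement histones, whose mRNA is polyadenylated and made outside S phase too, give the scale. H2afz lay at 208 CPM per kb, H3f3b at 194 and H3f3a at 85.6, and the hybrid gene H2afx, which makes both stem-loop and polyadenylated mRNA, at 26.0 CPM per kb. H2afj, H2afy and H2afv lay at 55.6, 49.4 and 34.2 CPM per kb. These 7 of the 11 listed stood above Hist1h1c, and Cenpa at 5.00, the linker histone gene H1f0 at 3.20, H2afy2 at 0.0164 and the linker histone gene H1fx at 0.0143 CPM per kb stood below it.

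Before the comparison, the libraries themselves need a description. The 7 CD8 T cell markers tested, among them Cd8a, Cd8b1 and Cd3e, summed to between 5060 and 6800 CPM. Of these, 0 of 7 passed the test, beside 1.08% of all genes in either direction. The 6 B cell markers summed to 39.5, 57.1 and 47.3 CPM in monotherapy and 46.1, 77.7 and 48.6 CPM in the combination, and 1 of them, Cd22, rose. The myeloid list ran from 13 to 27 CPM, and the 3 CD4 T cell markers from 1.58 to 7.81 CPM. In the myeloid gene Itgax all 3 combination libraries were higher, beside 7.14% of all genes tested. Itgax did not pass (log2 fold change 0.93 ± 0.22 SE, edgeR adjusted p = 0.114). Of the 6 tested myeloid entries 0 passed and 4, Itgax included, had a log2 fold change above 0. Lyz2 and Csf1r lay below, at -0.48 and -0.23, and Itgax alone had groups that did not overlap. The erythroid list lay at 2.98, 7.49 and 2.10 CPM in monotherapy and at 1.85, 1.03 and 1.14 CPM in the combination, all lower. Of its 3 tested genes 0 passed. In Hbb-bs and Hba-a1 all 3 combination libraries were lower, beside 7.55% of all genes tested, with log2 fold changes of -2.22 and -1.52. The NK cell list lay at 9.31 to 11.3 CPM in monotherapy and 18.2 to 32 CPM in the combination. Klre1 and Gzma of its 4 genes rose, and they made up most of the sum in every library. Klrb1c (log2 fold change 0.54 ± 0.30 SE) and Ncr1 (-0.16 ± 0.71 SE) missed the threshold in overlapping groups. Ncr1 rested on 48 reads over the 6 libraries. The melanocyte genes Dct and Tyrp1 had 582 and 743 reads in combination replicates 2 and 3, 0 in combination replicate 1, and 1, 0 and 0 in monotherapy. The whole melanocyte list summed to 21.9 to 28.6 CPM in monotherapy and to 30.2, 42.6 and 54.6 CPM in combination replicates 1, 2 and 3. Pmel made up most of this sum in every library, with 871, 822 and 1118 reads in monotherapy and 956, 872 and 1153 in the combination. Tyr, Sox10 and Mlana had 0 to 6 reads each in monotherapy libraries and 0 in combination replicate 1. In combination replicates 2 and 3 they had 21 to 67 reads each. The part of any of these cell types in the histone values was not tested.

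The libraries also differed by gene length, and histone models are short. Over the 1910 tested genes of at most 1000 bases, the median log2 level relative to the mean of the 6 libraries was 0.125, -0.037 and -0.0372 in monotherapy replicates 1, 2 and 3, and 0.213, 0.0586 and -0.145 in combination replicates 1, 2 and 3. The 2190 genes of 1 to 2 kb shared this order, at 0.242 in combination replicate 1 and -0.183 in combination replicate 3. The trend thus reached past the 1000 bases at which members are split below. For the 6460 genes over 4 kb it ran the other way, at -0.108 in combination replicate 1 and 0.0759 in combination replicate 3. For short genes combination replicate 1 was thus the highest and combination replicate 3 the lowest of the 6 libraries.

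No histone gene changed past the threshold when anti-PD1 was added to HCW9218. With 15142 genes fitted by edgeR (quasi-likelihood), 0 of 23 tested members were higher, beside 0.951% of all genes, and 0 were lower, beside 0.132%, at a Benjamini-Hochberg adjusted p under 0.05. In either direction the share of all genes was 1.08%. DESeq2 and limma-voom also called 0, and before adjustment 4 of 23 members lay under 0.05, where 8.00% of all genes did. The other 45 members had too few reads for the count filter. The SE of a log2 fold change had a median of 0.49 over the 23 members and 0.21 over all genes tested. In bulk RNA, fewer cells making histone mRNA and less of it per cell cannot be told apart.

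Among the 23 tested members, 15 had a log2 fold change above 0 and 8 below, with a median of 0.30, beside -0.0006 over all genes tested, of which 49.9% lay above 0. The range was -0.46 to 1.93. The median was -0.02 without combination replicate 1, 0.05 without combination replicate 2, 0.11 without monotherapy replicate 3 and 0.24 to 0.40 without each of the other 3 libraries in turn. With no count filter it was 0.52. The 3 combination libraries lay above all monotherapy libraries in 3 members, Hist1h2ai, Hist1h3c and Hist1h2ao, beside 7.14% of all genes tested. They lay below in 1, Hist2h2be, beside 7.55%. The count filter needs enough reads in any 3 libraries, so a low member can pass through the combination libraries alone. Hist1h3c, for example, had 8, 8 and 10 reads in monotherapy and 22, 24 and 16 in the combination. The counts of members above 0 and of members higher are thus not free of that selection.

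**Figure D2:**
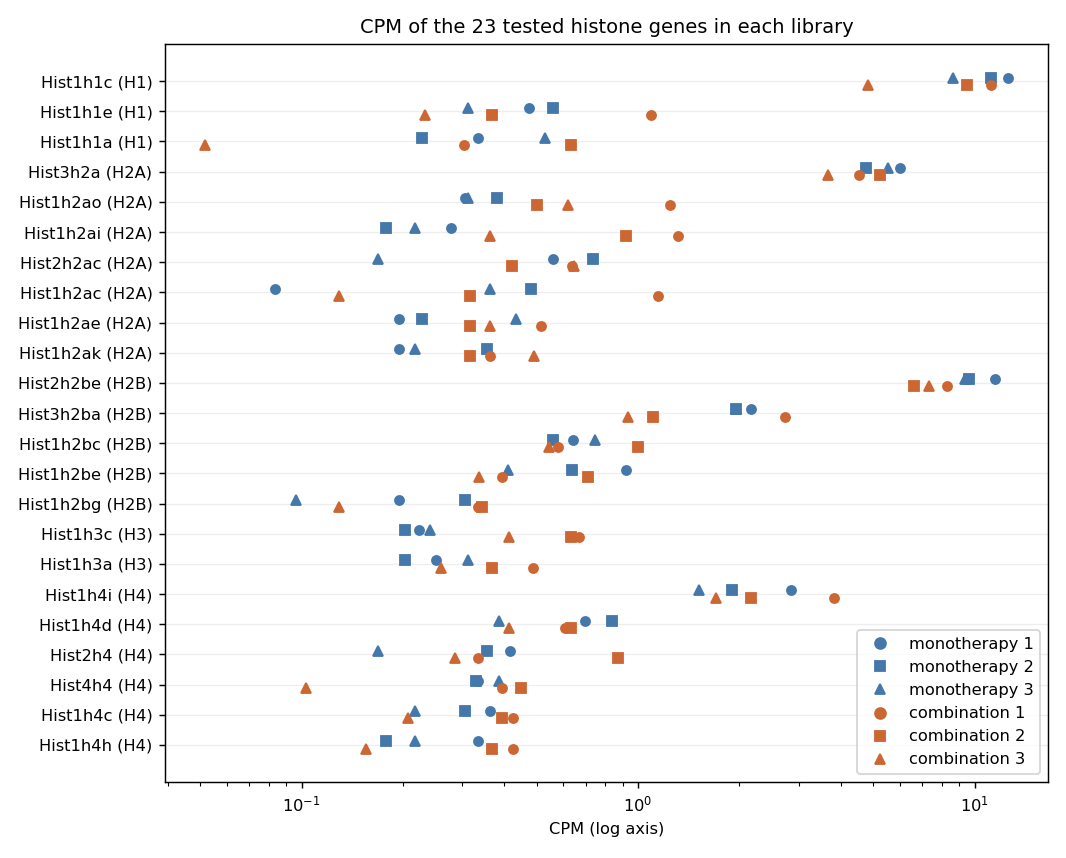
CPM (horizontal, log axis) of each of the 23 tested histone genes in the 6 libraries, in order of type and level. Blue symbols are the monotherapy libraries and orange symbols the combination libraries; the groups overlap in 19 genes, and combination replicate 1 holds the highest value in 11 of 23 and combination replicate 3 the lowest in 10.

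The H1 genes encode linker histones, which bind DNA between nucleosomes. Hist1h1c, which held 89.4% of the H1 reads, lay at 12.6, 11.2 and 8.61 CPM in monotherapy replicates 1, 2 and 3 and at 11.2, 9.49 and 4.81 CPM in combination replicates 1, 2 and 3. The groups overlapped, with combination replicate 3 alone below the others (log2 fold change -0.35 ± 0.29 SE, edgeR adjusted p = 0.918). Hist1h1e lay at 0.473, 0.559 and 0.313 CPM in monotherapy and at 1.09, 0.369 and 0.233 CPM in the combination, where replicate 1 was the highest of all and replicate 3 the lowest. Hist1h1a showed no order either, at 0.228 to 0.530 CPM in monotherapy and 0.0517 to 0.632 CPM in the combination.

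The H2A type held the member with the largest fold change. Hist1h2ai (ENSMUSG00000071516, chr13:21716422-21716814) lay at 0.278, 0.178 and 0.217 CPM in monotherapy replicates 1, 2 and 3 and at 1.31, 0.922 and 0.362 CPM in combination replicates 1, 2 and 3. These values rest on 10, 7 and 9 reads against 43, 35 and 14. All 3 combination libraries were higher, with replicate 3 closest to monotherapy. The log2 fold change was 1.93 ± 0.55 (SE) and did not pass (edgeR adjusted p = 0.227). It passed without combination replicate 3 (2.30, adjusted p = 0.0386), and with combination replicates 2 and 3 both left out (2.52, adjusted p = 0.0327), a fit in which the lone combination library is assumed to vary like the monotherapy libraries. Over all 15 alternatives in which it was tested, the adjusted p ran from 0.0327 to 0.735. Only 11.6% of its 100-base windows are its own.

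Hist1h2ao, an H2A gene whose stem-loop is followed by 31 bases, lay at 0.306, 0.381 and 0.313 CPM in monotherapy and at 1.24, 0.501 and 0.621 CPM in the combination. Again all 3 combination libraries were higher and replicate 1 stood out (log2 fold change 1.23 ± 0.48 SE, edgeR adjusted p = 0.497). Of the 100-base windows of Hist1h2ao, only 7.3% are its own. The long H2A gene Hist3h2a, which held 60.2% of the H2A reads, had 6.01, 4.77 and 5.54 CPM in monotherapy and 4.55, 5.24 and 3.67 CPM in the combination. Its groups overlapped, with a log2 fold change of -0.28 ± 0.21 (SE). Hist2h2ac and Hist1h2ac also overlapped, with log2 fold changes of 0.23 ± 0.55 and 0.75 ± 0.82 (SE), and Hist1h2ac was at 1.15 CPM in combination replicate 1 and at 0.0835 to 0.482 CPM in the other 5 libraries. Hist1h2ae and Hist1h2ak had log2 fold changes of 0.46 and 0.60 in overlapping groups.

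The H2B proteins pair with H2A in the nucleosome. Hist2h2be (ENSMUSG00000068854, chr3:96221119-96223738) held 69.2% of the H2B reads and lay at 11.5, 9.65 and 9.38 CPM in monotherapy and at 8.26, 6.61 and 7.30 CPM in the combination. All 3 combination libraries were lower, and the difference did not pass (log2 fold change -0.46 ± 0.17 SE, edgeR adjusted p = 0.446, and 0.237 to 0.91 over 16 alternatives). All its 100-base windows are its own. Hist3h2ba had 2.17, 1.95 and 1.95 CPM in monotherapy and 2.73, 1.11 and 0.931 CPM in the combination, where replicate 1 was above and replicates 2 and 3 below every monotherapy library. Hist1h2bc, Hist1h2be and Hist1h2bg had log2 fold changes of 0.13, -0.43 and 0.43, with SEs of 0.40 to 0.62, and overlapping groups.

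The H3 and H4 genes encode the core pair around which a nucleosome forms. Hist1h3c (ENSMUSG00000069310) lay at 0.223, 0.203 and 0.241 CPM in monotherapy and at 0.668, 0.632 and 0.414 CPM in the combination. All 3 combination libraries were higher, with a log2 fold change of 1.35 ± 0.45 (SE) that did not pass (edgeR adjusted p = 0.358). Hist1h3a, the other H3 gene tested, lay at 0.203 to 0.313 CPM and 0.259 to 0.486 CPM, with a log2 fold change of 0.52 ± 0.49 (SE). In the H4 type, Hist1h4i had 2.84, 1.90 and 1.52 CPM in monotherapy and 3.82, 2.16 and 1.71 CPM in the combination, in overlapping groups. Its log2 fold change was 0.30 ± 0.37 (SE). Hist1h4d, Hist2h4, Hist4h4, Hist1h4c and Hist1h4h had -0.21, 0.67, -0.16, 0.21 and 0.38, with SEs of 0.44 to 0.59, and overlapped as well.

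Of the 45 members below the filter, 39 overlapped between the groups, the 9 at 0 included, and the highest had 56 reads over the 6 libraries. In 5 of the 36 with at least 1 read the combination libraries were all higher in CPM, beside 5.58% of 17425 such genes below the filter, and in 1 all lower, beside 1.61%; they are named after their values were seen. Hist1h1b, a linker histone gene whose windows are all its own, had 1, 1 and 1 reads in monotherapy and 10, 9 and 2 in the combination. Hist1h2ag had 5, 1 and 2 reads against 11, 16 and 7. Hist1h2an, Hist1h2af and Hist1h2bk were the others, with 1 to 4, 0 to 1 and 0 to 1 reads against 4 to 15, 2 to 3 and 1 to 4. In Hist1h2an and Hist1h2bk the closest libraries of the groups had equal reads, 4 and 4 and 1 and 1, and the groups separate only after scaling to CPM. Own 100-base windows made up 23.8% in Hist1h2ag, 16.7% in Hist1h2an, 20.7% in Hist1h2af and 29.2% in Hist1h2bk. In Hist2h3c2 the combination libraries were lower, at 4, 8 and 5 reads against 11, 12 and 9. With no count filter 59 members could be tested and 0 passed.

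**Figure D3:**
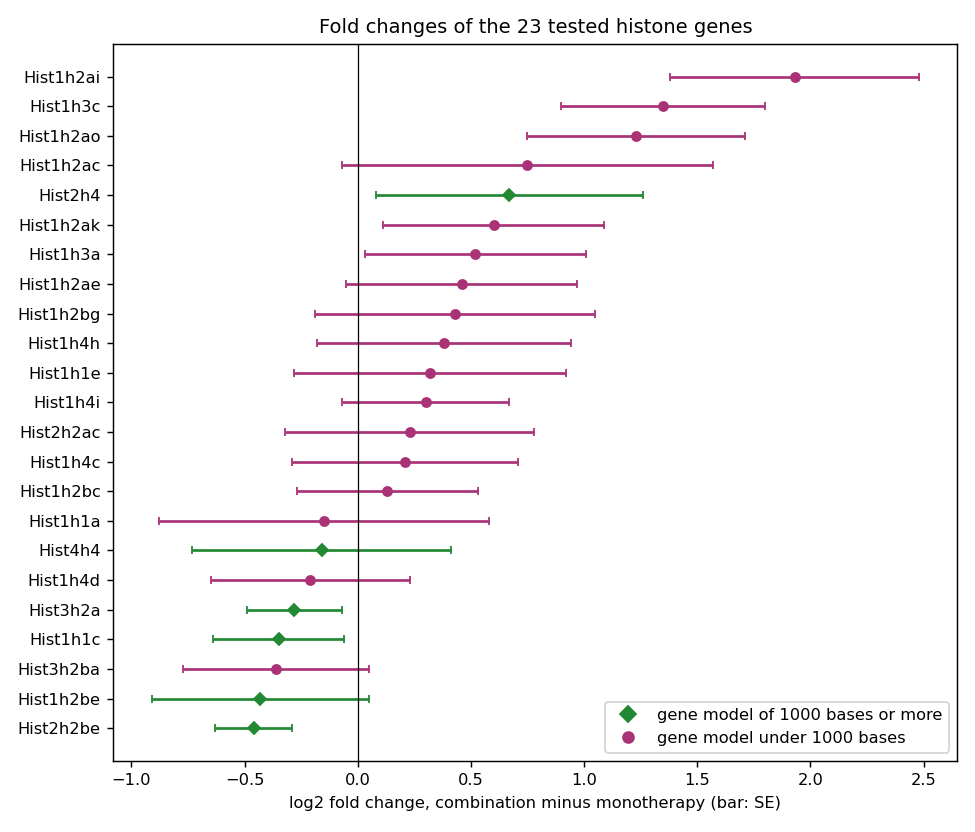
Log2 fold change of the combination over monotherapy (horizontal) for each of the 23 tested histone genes, with bars of 1 SE. Diamonds are the 6 genes with a deposited model of 1000 bases or more, 5 of them below 0, and circles the 17 shorter ones, 14 of them above 0; 0 of the 23 passed the test.

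Fold changes of long and short gene models had medians on opposite sides of 0. Of the 6 tested members with a model of 1000 bases or more, 5 had a log2 fold change below 0, with a median of -0.31. Of the 17 shorter ones, 14 were above 0, with a median of 0.38. Over all tested genes the medians were -0.007 for the 13237 long and 0.075 for the 1905 short models, of which 57.3% lay above 0. This split was made after the values were seen, and the difference between the member groups was not tested. Low members among the short ones can also have passed the count filter through the combination libraries alone. In 11 of the 17 short members combination replicate 1 held the highest value. The median over all tested genes of at most 1000 bases was also highest in that library, at 0.213. Whether gene length bears on the member values was not tested. With each library's gene-length trend removed, the median of the 23 members was 0.22, 0 passed, and Hist1h2ai had a log2 fold change of 1.85 (edgeR adjusted p = 0.155).

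Reads were then summed by type, since a sum keeps what counting may split between near-identical copies of that type. Reads left uncounted because they match several copies, if there were any, would be missing from the sums too. All 68 genes together gave 44.7, 39.5 and 34.5 CPM in monotherapy replicates 1, 2 and 3 and 46.8, 37.8 and 26.9 CPM in combination replicates 1, 2 and 3. Combination replicate 1 was the highest and combination replicate 3 the lowest of the 6 libraries. The group means were 39.6 ± 5.10 and 37.2 ± 9.97 CPM (SD, n = 3 each), a log2 ratio of -0.09.

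The groups overlapped in every one of the 5 types. H1 summed to 11.8 ± 2.04 and 9.81 ± 3.99 CPM in monotherapy and the combination, H2A to 7.66 ± 0.342 and 9.02 ± 2.20 CPM, and H2B to 14.3 ± 1.63 and 11.2 ± 1.77 CPM (SD, n = 3 each). H3 summed to 1.39 ± 0.149 and 1.80 ± 0.409 CPM, and H4 to 4.46 ± 1.20 and 5.39 ± 1.83 CPM (SD, n = 3 each). The log2 ratios were -0.26, 0.24, -0.36, 0.37 and 0.28 in that order, and no p is given for sums. Leaving out 1 library moved the ratio to between -0.29 and 0.10 for all members, -0.53 and 0.03 for H1, 0.05 and 0.40 for H2A, -0.49 and -0.26 for H2B, 0.20 and 0.53 for H3 and 0.03 and 0.51 for H4. The lowest values were those without combination replicate 1 and the highest those without combination replicate 3, except in H2B, where the highest was that without monotherapy replicate 1. With combination replicates 2 and 3 both left out, the ratio was 0.15 for H1 and 0.67 for H4.

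**Figure D4:**
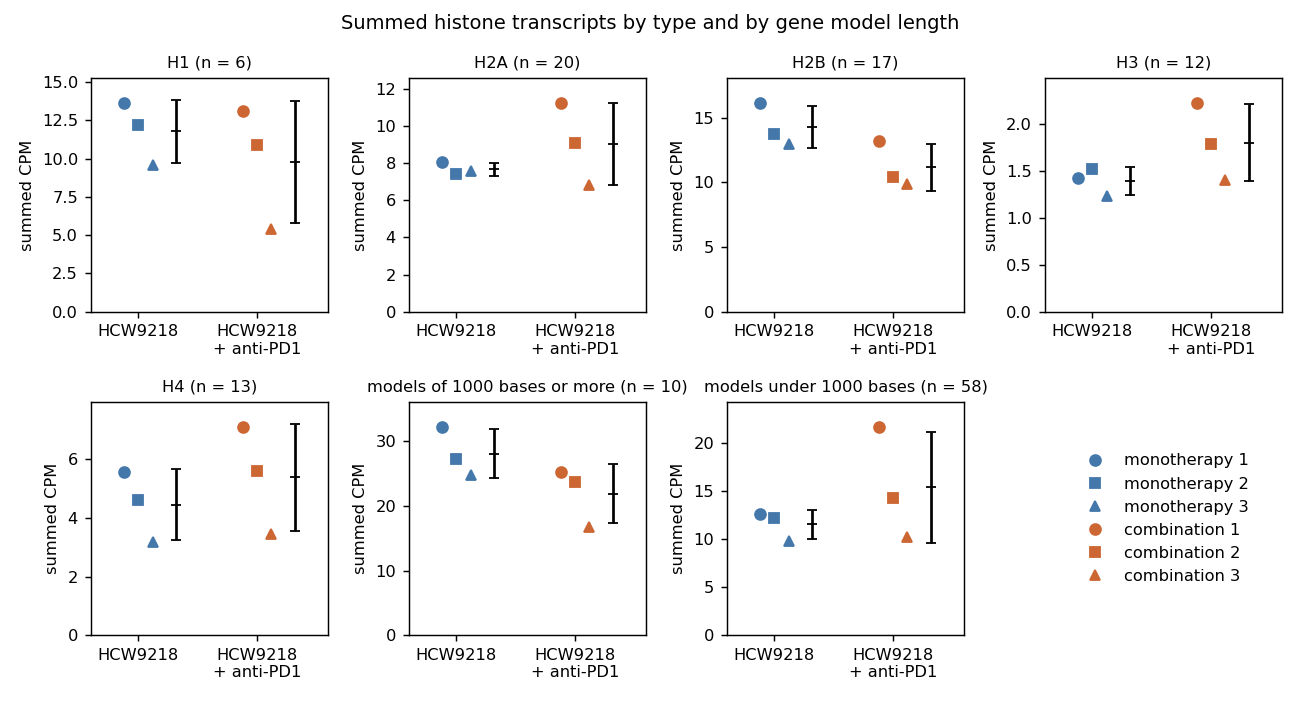
Summed CPM (vertical, from 0) of the members of each histone type, and of the members with models of 1000 bases or more and under 1000 bases, in each library. Symbols are libraries and black bars the group mean ± SD (n = 3); the groups overlap in all 7 panels, and the short models span 9.79 to 12.6 CPM in monotherapy and 10.2 to 21.6 CPM in the combination.

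A single gene held most reads in H1, H2A and H2B and not in H3 or H4, where Hist1h3c held 24.6% and Hist1h4i 46.9%. The 10 members with models of 1000 bases or more held 5623 of the 8610 histone reads and summed to 32.1, 27.2 and 24.7 CPM in monotherapy and 25.2, 23.6 and 16.7 CPM in the combination. The 58 shorter ones held 2987 reads and summed to 12.6, 12.2 and 9.79 CPM in monotherapy and 21.6, 14.3 and 10.2 CPM in the combination. Here replicates 1 and 2 of the combination stood above every monotherapy library, replicate 1 the highest of all, and replicate 3 lay within the monotherapy range.

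The log2 ratio of H2A moved most when the largest member of each type was set aside. Without Hist3h2a the other 19 H2A genes summed to 2.03, 2.61 and 2.00 CPM in monotherapy and 6.65, 3.82 and 3.13 CPM in the combination, so that all 3 combination libraries were higher, at a log2 ratio of 1.03. Without Hist1h1c the other 5 H1 genes summed to 0.974, 1.04 and 0.940 CPM and to 1.94, 1.45 and 0.569 CPM. Without the 5 largest members, 1 of each type, the sums overlapped at 9.21 to 11.8 and 9 to 18.3 CPM.

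Promoters of the members share short motifs, and the upstream sequence of Hist1h2ai, the member with the largest fold change, and of Hist1h2ac, which holds all 3 motifs searched, are shown. RefSeq promoters (GRCm38.p6) were matched for 59 of 68 members, and the 250 bases before the start were searched on both strands for the TATA box (letters TATAAA), the CCAAT box (letters as in its name) and the octamer, which is spelled ATTTGCAT. Each motif was searched on its own, so overlapping matches count for each. Capitals mark the matches, in either direction.
Hist1h2ai, chr13:21716162-21716411 (+): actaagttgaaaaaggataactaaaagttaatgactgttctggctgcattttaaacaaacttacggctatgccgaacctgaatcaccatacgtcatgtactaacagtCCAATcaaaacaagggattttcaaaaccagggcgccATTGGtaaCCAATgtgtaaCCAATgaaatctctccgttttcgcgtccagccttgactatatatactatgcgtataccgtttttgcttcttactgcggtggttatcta
Hist1h2ac, chr13:23683960-23684209 (-): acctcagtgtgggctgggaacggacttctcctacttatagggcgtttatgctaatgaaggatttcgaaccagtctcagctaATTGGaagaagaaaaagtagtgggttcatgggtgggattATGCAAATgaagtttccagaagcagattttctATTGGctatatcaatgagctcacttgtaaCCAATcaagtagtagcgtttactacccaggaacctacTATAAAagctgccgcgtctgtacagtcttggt

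CCAAT, the box bound by the factor NF-Y, was found in 48 of 59 members (81.4%), beside 34.5% of 27025 promoters. It was in all 17 H2A, all 14 H2B and all 6 H1 promoters and in 3 of 12 H4 promoters. TATAAA was found in 29 of 59 (49.2%), beside 13% of all. The octamer, bound by POU factors such as Oct1, was in 7 of 17 H2A and 5 of 14 H2B promoters and in 0 of the H1, H3 and H4 promoters, beside 1.61% of all. Neighbouring H2A and H2B genes that face away from each other can share such a window, so these counts are not independent. The motifs are letters found in these windows and are not tied here to any level.

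None of the tested genes listed as histone mRNA factors, replacement histones or histone chaperones passed in edgeR, while 19 of 20 mitosis genes rose. Over all genes tested, 0.951% were higher and 0.132% lower. For lists of 17, 9 and 21 tested genes a count of 0 is near that share, and is no result about these lists. Of 17 tested factors that transcribe or process histone mRNA, 0 passed in edgeR (median log2 fold change 0.12), and DESeq2 called 1 and limma-voom 0. Slbp, the stem-loop binding protein, had 65.5 ± 8.93 and 88.3 ± 16.3 CPM (SD, n = 3 each) in monotherapy and the combination, with a log2 fold change of 0.43 ± 0.17 (SE; edgeR adjusted p = 0.515). Ccne2, a cyclin that drives entry into S phase, had 4.99 ± 0.693 and 8.94 ± 0.861 CPM and missed the threshold (adjusted p = 0.0800). Npat and Casp8ap2, which assemble the histone locus body, had log2 fold changes of 0.03 ± 0.14 and -0.25 ± 0.16 (SE).

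Among 9 tested replacement histones 0 passed in edgeR, with a median of 0.21, and DESeq2 called 1 and limma-voom 0. Cenpa, the H3 form of centromeres, had 22 ± 1.10 and 36.7 ± 7.06 CPM (SD, n = 3 each; log2 fold change 0.74 ± 0.16 SE, edgeR adjusted p = 0.0800). H2afx, at 28.7 ± 3.35 and 43.2 ± 6.97 CPM, had all 3 combination libraries higher and did not pass (adjusted p = 0.192). H2afz and H3f3b had log2 fold changes of 0.50 ± 0.27 and -0.29 ± 0.25 (SE).

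The list of histone chaperones holds genes that carry new histones to DNA and also genes with other roles around histones. It had a median of 0.04, and 0 of 21 passed in edgeR, while DESeq2 called 1 and limma-voom 0. Asf1b, a chaperone of H3 and H4 in dividing cells, had 12.3 ± 0.954 and 20.6 ± 2.41 CPM (SD, n = 3 each) and missed the threshold (edgeR adjusted p = 0.0531). Chaf1a, a subunit of the replication-coupled assembly factor CAF-1, had a log2 fold change of 0.67 ± 0.22 (SE), and its partner Chaf1b -0.11 ± 0.13.

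Of 25 S phase genes 4 rose (Rrm2, Tyms, Mcm10 and Tk1), beside 0.951% of all genes tested. In this list 0 fell and 21 missed the threshold, and the median was 0.26. Rrm2, a subunit of the enzyme that makes deoxynucleotides, rose from 14.5 ± 1.96 to 37.2 ± 5.42 CPM (SD, n = 3 each; log2 fold change 1.36 ± 0.16 SE, edgeR adjusted p = 0.00517). The count was 1 without each monotherapy replicate in turn and 2 with library totals in place of TMM factors. Of 20 mitosis genes 19 rose and Aurka alone missed the threshold; the list's median was 1.5, and without monotherapy replicates 1, 2 and 3 the counts were 6, 12 and 8. Both lists were chosen with earlier results of these data known, so their direction is no independent evidence. The summed mitosis genes lay at 224, 264 and 242 CPM in monotherapy and 588, 641 and 780 CPM in the combination. Combination replicate 3 was the highest in this sum and the lowest in summed histone reads. By gene length it was also the lowest library for short genes, at -0.145, and the highest for genes over 4 kb, at 0.0759. Mki67 and Top2a, with models of 10061 and 9013 bases, gave 210 and 176 of its 780 CPM. The part of gene length in this contrast was not tested.

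**Figure D5:**
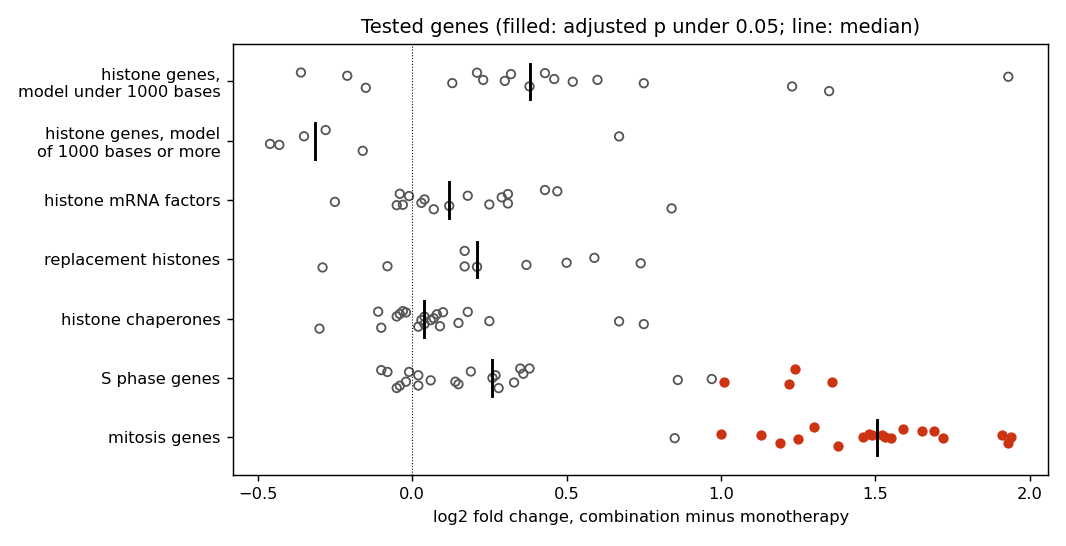
Log2 fold change of the combination over monotherapy (horizontal) of the tested histone genes, split by model length, and of the tested genes of 5 related lists. Filled circles passed an adjusted p under 0.05 and lines are medians; 19 of 20 mitosis genes and 4 of 25 S phase genes are filled, and 0 of the 23 histone genes.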

How the data were processed

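Gene counts were deposited for 3 monotherapy and 3 combination libraries. Per the submitters' processing notes, STAR 2.5.2b, Subread 1.5.2, featureCounts and DESeq2 were used; how reads with several matches, and strand, were handled is not given in the sources used here. Those counts deposited by the authors are whole reads per gene. Of the series-wide columns, 6 were used and 6 that match no sample here were not used.

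Genes passing edgeR's filterByExpr were tested with edgeR 4.0.16 (TMM, quasi-likelihood F-test, R 4.3.3) with Benjamini-Hochberg adjustment over all 15142 genes at 0.05. CPM values were scaled by TMM factors. Alternatives used DESeq2 1.42.0, limma 3.58.1 (voom), other scalings and filters, each replicate left out, and, chosen after seeing the data, combination replicates 2 and 3 left out together and gene-length offsets. The test was tested on simulated data.

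The members and gene lists were chosen with earlier results of these data known. Genes named by rule were members past the threshold, the 5 tested members of each type with the highest mean CPM, and in each related list those past the threshold and the 3 with the smallest p; other genes were named after their values were seen. Coordinates are GRCm38, and promoters are from RefSeq.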

Additional observations from a re-analysis of the deposited data

How the results depend on the processing

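Few reads limit every single-gene value, and the split of reads between near-identical copies limits genes with few windows of their own. The count of members that passed was 0 except without combination replicate 3 (range 0 to 1 over replicates left out) and with combination replicates 2 and 3 left out together (1), each time Hist1h2ai. The median of the tested members was -0.35 with a filter of at least 1 CPM in 3 libraries (5 members tested) and ran from -0.02 to 0.40 with 1 replicate left out.

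Without the largest member of each type the log2 ratio was 0.33 for all members, 0.42 for H1, 1.03 for H2A, -0.13 for H2B and 0.07 for H3. With combination replicates 2 and 3 left out together it was 0.24 for all members, 0.55 for H2A, -0.12 for H2B and 0.67 for H3, and fold changes of the other sign were found for Hist1h1c (0.04), Hist3h2ba (0.42), Hist1h2bc (-0.18) and Hist4h4 (0.16). With 1 replicate left out the sign changed within the ranges -0.55 to 0.69 for Hist1h1e, -1.05 to 0.36 for Hist1h1a, -0.19 to 0.66 for Hist2h2ac, -0.46 to 1.22 for Hist1h2ac, -0.20 to 0.29 for Hist1h2bc, -0.09 to 0.59 for Hist1h4i, -0.48 to 0.03 for Hist1h4d, -0.00 to 0.95 for Hist2h4 and -0.50 to 0.27 for Hist4h4; single values were 0.23 for Hist1h1a without monotherapy replicate 3. Of 305 alternative values of named members, 289 kept their sign and side of the threshold. The causes were not tested.

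In the related lists, DESeq2 called 1 histone mRNA factor, 1 replacement histone and 1 chaperone higher. No count filter gave 1, 2 and 1, and gene-length offsets gave 1 factor and 1 chaperone. With combination replicates 2 and 3 left out together the counts were 2, 5 and 1. Leaving out 1 replicate gave 0 to 1 factors, 0 to 1 chaperones, 1 to 6 S phase genes and 6 to 19 mitosis genes, and library totals gave 2 S phase genes. Over all genes, 144 higher and 20 lower became 282 and 72 with DESeq2, 340 and 113 with no count filter, 834 and 628 with combination replicates 2 and 3 left out together, and 32 to 233 and 2 to 49 with 1 replicate left out; the lower count was 32 with gene-length offsets.

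With a replicate block, 0 members passed (smallest adjusted p 0.141, for Hist1h2ai), 1 factor, 1 replacement histone and 1 chaperone were called, and 231 genes were higher and 57 lower. Deviations of same-numbered libraries correlated at 0.1454, -0.0551 and 0.2791, and libraries numbered 2 did not correlate best with each other, so the numbers were not taken as pairs.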
